A study of Mus musculus with 50 samples.

Results

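Genes that mark macrophages and dendritic cells were followed in the mouse thyroid during antibody blockade of the Notch pathway. They are Adgre1, Csf1r, Cd68, Lyz2, C1qa, C1qb, C1qc, Mrc1, Itgax and Cd163, chosen by symbol through their Ensembl identifiers, and each matched 1 row, making 10 genes of the 52636 in the count table. All 10 passed the filter on low counts in every comparison. The study measured RNA-seq of thyroid from male C57BL/6 mice, snap frozen at necropsy, after a single intraperitoneal dose of antibody. Every group received an antibody, and the labels place 5 libraries in each of 10 groups, 50 in all. The isotype control, called RW, was an anti-ragweed antibody at 40 mg/kg. The ligand blockade, aJ1aJ2, combined anti-Jag1 and anti-Jag2 at 20 mg/kg each. The receptor blockade aN1aN2 combined anti-Notch1 at 5 mg/kg and anti-Notch2 at 10 mg/kg, and aN1aN2aN3 added anti-Notch3 at 20 mg/kg. RW, aJ1aJ2 and aN1aN2 were sampled at 15 hours and at 5 days. At 7 days there were 2 sets, one with RW and aJ1aJ2 (the first) and one with aJ1aJ2 and aN1aN2aN3 (the second). The second was analysed here without an isotype control, its antibody groups being compared with each other. The mice were 10 to 12 weeks old by the series text and 10 to 14 weeks by the treatment protocol. The series text also mentions daily thyroid hormone injections, which the labels assign to no library.

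Macrophages that live in a tissue are maintained by signalling through Csf1r, the receptor for colony-stimulating factor 1, and clear dead cells, debris and opsonised particles. Dendritic cells carry antigen to lymph nodes and share several surface proteins with macrophages, among them the integrin Itgax (CD11c). Notch signalling, started by ligands such as Jag1 and Jag2 on neighbouring cells, is known to act in the development of some dendritic cells and macrophages, and in the thyroid such cells lie in the stroma between follicles.

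Among the 10 genes, Adgre1 encodes the surface receptor F4/80 and Cd68 a lysosomal glycoprotein of phagocytes. C1qa, C1qb and C1qc encode the chains of complement C1q, the recognition part of the classical complement pathway, and in tissues are made mainly by macrophages. Mrc1 encodes the mannose receptor CD206 and Cd163 the scavenger receptor for haemoglobin bound to haptoglobin. Lyz2 encodes lysozyme of myeloid cells, an enzyme that also has epithelial sources. Other macrophage markers were present in these libraries: 20 of 21 further genes of that cell type passed the filter at 15 hours, and their summed level ran from 184 to 495 CPM (counts scaled to library size) over the 50 libraries. The macrophage gene left out, Marco, stood at 0 to 1.49 CPM. All 12 further dendritic genes passed at 15 hours, with a summed level of 47.3 to 127 CPM. In whole tissue, fewer cells of a type and less RNA per cell cannot be told apart. The labels do not say that the libraries come from separate mice, so p-values measure the spread between these libraries.

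Upstream sequences are shown for 2 of the C1q genes, the members that varied together most closely among the libraries, and for Mrc1 and Cd163, whose groups separated at 7 days in the first set. They come from RefSeq on GRCm38.p6, 5′ to 3′ on the gene's strand, and end before the first annotated base of the gene. Capitals mark each match to GAGGAA or its reverse complement TTCCTC, a core read by PU.1, the myeloid transcription factor encoded by Spi1. C1qb is taken from chr4:136886201-136886450 (minus strand), C1qc from chr4:136893066-136893164 (minus strand), Mrc1 from chr2:14229164-14229391 (plus strand) and Cd163 from chr6:124304401-124304650 (plus strand).
C1qb: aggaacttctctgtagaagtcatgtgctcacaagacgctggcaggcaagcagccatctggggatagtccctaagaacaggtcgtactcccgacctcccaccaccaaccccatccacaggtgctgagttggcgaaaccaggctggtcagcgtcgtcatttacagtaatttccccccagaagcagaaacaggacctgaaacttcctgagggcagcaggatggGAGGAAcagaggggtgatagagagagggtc
C1qc: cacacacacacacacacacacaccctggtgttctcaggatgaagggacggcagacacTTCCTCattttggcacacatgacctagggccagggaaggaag
Mrc1: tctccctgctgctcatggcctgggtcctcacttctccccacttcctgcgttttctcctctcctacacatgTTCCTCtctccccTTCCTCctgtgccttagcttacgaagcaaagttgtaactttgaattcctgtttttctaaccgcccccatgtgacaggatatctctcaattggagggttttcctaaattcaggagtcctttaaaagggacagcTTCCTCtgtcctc
Cd163: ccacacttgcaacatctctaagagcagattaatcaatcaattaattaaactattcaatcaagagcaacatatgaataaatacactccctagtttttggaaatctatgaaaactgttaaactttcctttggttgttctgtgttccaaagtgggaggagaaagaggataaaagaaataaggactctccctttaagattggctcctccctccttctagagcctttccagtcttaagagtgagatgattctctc
C1qb and C1qc each held 1 match, Mrc1 held 3 and Cd163 held 0. Of the 7 members with a promoter in the RefSeq table, 4 had a match within 250 bases upstream of the start, against 23.3% of 32851 promoters of that length. The letters TGGGAA or TTCCCA, a core of the Notch partner RBPJ, were in 2 of the 7 (Cd68 and Lyz2), against 21.6% of promoters. TGACTCA or TGAGTCA, the site of AP-1, was also in 2 of the 7 (Cd68 and Itgax), against 4.46%. GAGGAA and TGGGAA share their last 4 letters but no stretch can match both. A match describes letters in a window and is not evidence of binding. Adgre1, Csf1r and C1qa had no entry.

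The total counts per library ran from 15271242 to 52835846. Follicle genes, led by Tg, took 1.29% to 6.87% of counts in the 10 libraries of the second 7-day set and a median of 30.7% in the other 40, while parathyroid genes took a median of 3.52% and 0.471%. In 4 libraries, RW replicate 5 and aN1aN2 replicates 2 and 5 at 15 hours and aN1aN2 replicate 1 at 5 days, airway genes (Foxj1, Scgb1a1, Scgb3a1, Bpifa1, Muc5b, Ccdc153, Dynlrb2) summed to 3934 to 10847 CPM, against 1.91 to 289 CPM in the other 46. RW replicate 3 at 5 days had 11.7% of its counts in skeletal muscle genes and 0.455% in follicle genes.

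Levels of the 10 genes relative to one another were set as CPM per kilobase of exon (GENCODE M21 exon length). In the 15 RW libraries the medians were 77.6 for Lyz2, 34.2 for both C1qb and C1qa, and 14.4 for C1qc. Csf1r followed at 6.97, Cd68 at 6.61, Adgre1 at 3.46, Mrc1 at 3.02, Cd163 at 2.65 and Itgax at 1.08 CPM per kilobase. Lyz2 and the C1q genes thus led the members, and Itgax was the lowest. The deposited FPKM values, which are fragment counts scaled by gene length and library size, order them differently, with Adgre1 lowest at a median of 0.0847 in the RW libraries of 15 hours and the first 7-day set. The length implied by the deposited counts and FPKM was 122 kb for Adgre1, near its gene span of 125 kb and far above its 3.24 kb of exon. Over 10694 genes whose span is more than 2 times their exon length, the implied length was a median of 0.980 times the span and 5.94 times the exon length. FPKM therefore divides long genes such as Adgre1 and Mrc1 (span 103 kb) by far more than compact genes such as C1qa (span 2.89 kb). Whether reads in introns were counted is not given in the sources used here.

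For 2 members the counts may hold reads of another gene. Csf1r shares exonic bases with Hmgxb3 on the opposite strand, and whether the counting used strand is not given in the sources used here, so Csf1r counts may hold reads of Hmgxb3. Lyz2 and its neighbour Lyz1 share part of their sequence. Of the 1267 stretches of 50 bases, the read length, in the Lyz2 transcript, 195 (15.4%) also occur in Lyz1. The division of such reads between the pair is uncertain. The other 8 members had no exon overlap with another gene.

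**Figure D1:**
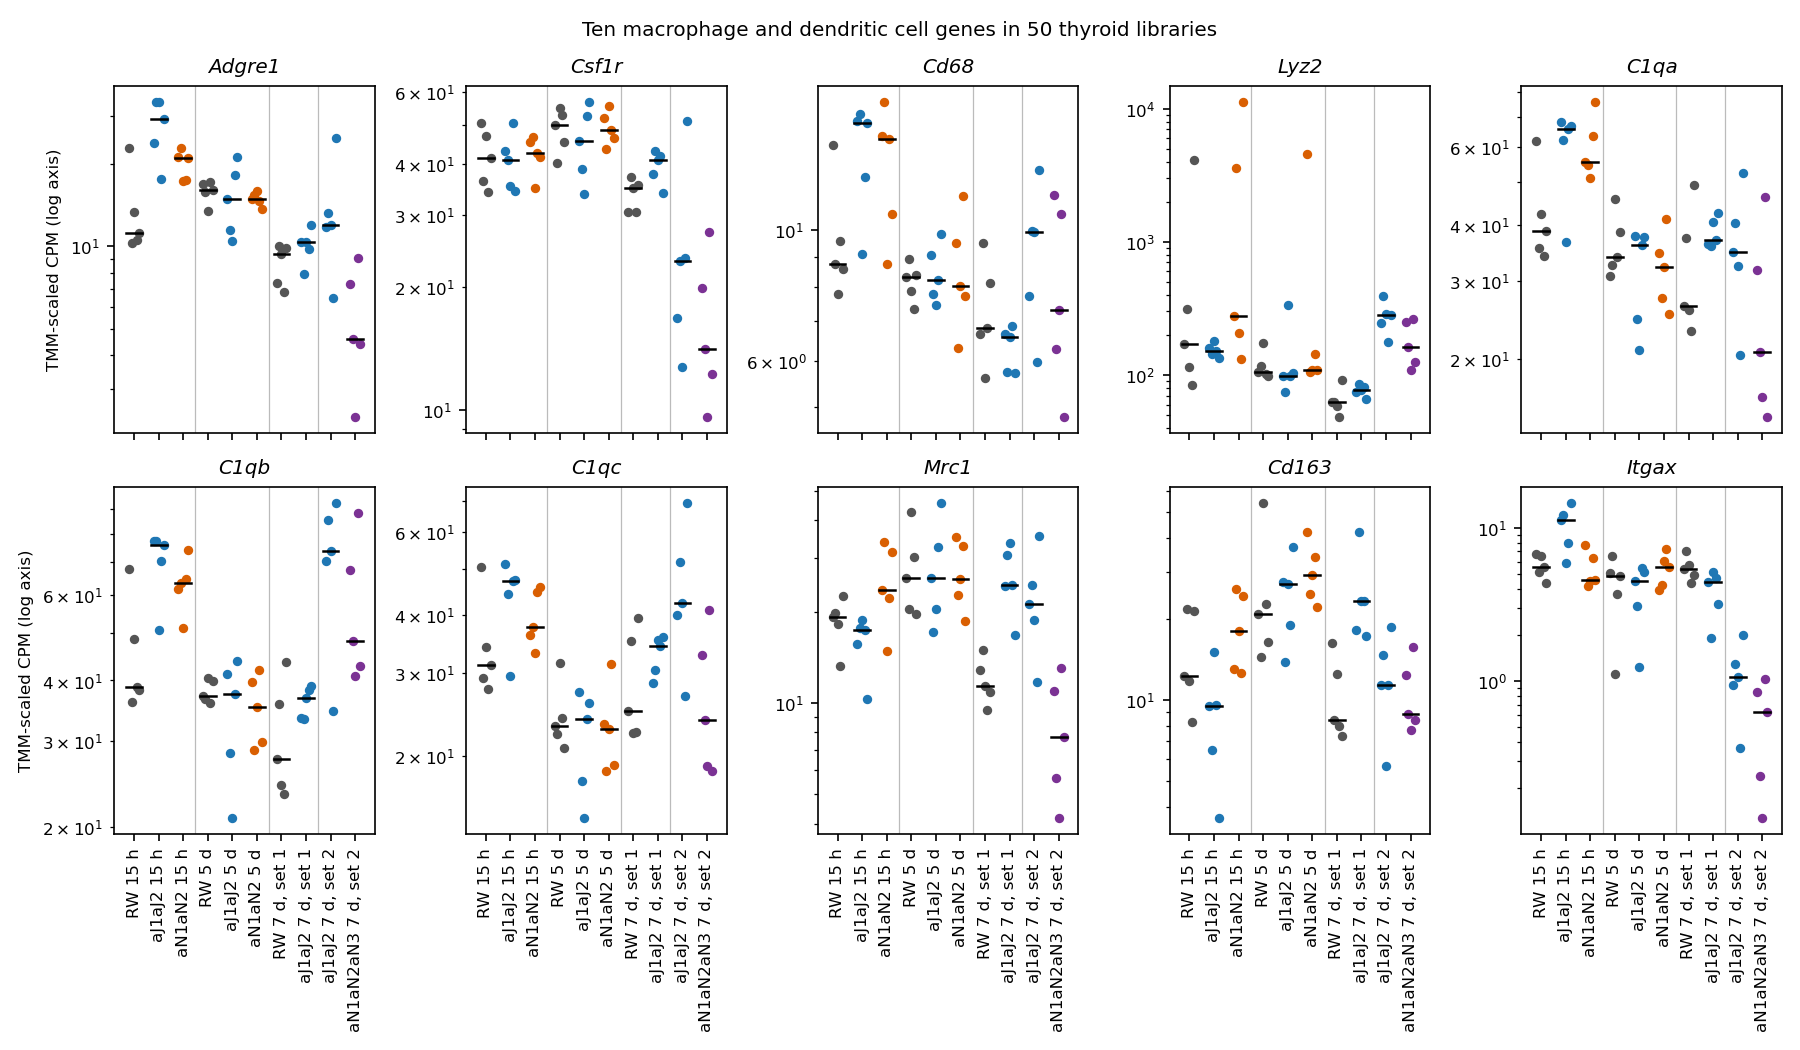
Level of each of the 10 genes in all 50 libraries, in CPM after scaling by edgeR's trimmed mean on a log axis, by the 10 groups; points are libraries and the line is the group median. Adgre1 is highest in the aJ1aJ2 libraries at 15 hours (median 29.2) and lowest with aN1aN2aN3 at 7 days (median 4.57), and 4 Lyz2 points stand at 3604 CPM or more.

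Over the 50 libraries Cd68 was the steadiest member, from 4.81 to 16.5 CPM (3.43-fold). C1qb spanned 4.43-fold, C1qc 4.71-fold, C1qa 5.13-fold and Csf1r 5.92-fold. Mrc1 spanned 10.9-fold, Adgre1 14.2-fold, Cd163 14.9-fold, Itgax 113-fold and Lyz2 232-fold. The aJ1aJ2 group at 15 hours had the highest median of all groups for 6 members (Adgre1, Cd68, C1qa, C1qb, C1qc and Itgax), and aN1aN2aN3 at 7 days the lowest for 5 (Adgre1, Csf1r, C1qa, Mrc1 and Itgax). With the 10 groups ordered by median, neighbours overlapped in range in all 9 steps for 9 members. For Adgre1 they overlapped in 8 of 9 steps, the exception being aN1aN2 at 15 hours (17.4 to 22.8 CPM) above RW at 5 days (13.5 to 17.2 CPM).

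At 15 hours the ligand blockade was compared with the isotype control. Adgre1 stood at 22.8, 10.3, 13.3, 10.5 and 11.2 CPM in the RW libraries, replicates 1 to 5, and at 23.9, 33.7, 33.7, 17.6 and 29.2 CPM with aJ1aJ2. All 5 aJ1aJ2 libraries were above the RW mean, and the groups overlapped only because RW replicate 1 was above aJ1aJ2 replicate 4. The means were 13.6 ± 5.24 and 27.6 ± 6.91 CPM (SD, n = 5 each), a log2 fold change of 1.02 ± 0.23 (SE). The adjusted p was 0.0851 (edgeR quasi-likelihood test, Benjamini-Hochberg over all 18513 genes tested, as for all adjusted p-values here unless another tool is named), so the difference did not pass the 0.05 threshold. It passed in 2 of 15 fits that left out 1 library, where the adjusted p ran up to 0.273. These were the fits without RW replicate 1 (1.32, adjusted p = 0.0118) and without aJ1aJ2 replicate 4 (1.16, adjusted p = 0.0320). It also passed in 1 of 10 alternatives, DESeq2 (adjusted p = 0.00409). RW replicate 1 was the highest of its group for 7 of the 10 members and had the highest summed level of the further macrophage genes, 387 CPM against 265 to 288 CPM in the other 4. Its part in the result beyond these values was not tested.

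The complement C1q genes had higher means than RW in this comparison without passing the test. C1qb stood at 67.8, 36.1, 48.6, 38.8 and 38.2 CPM with RW and at 77.1, 77.3, 50.7, 70.4 and 75.7 CPM with aJ1aJ2. For C1qb 4 aJ1aJ2 libraries were above every RW library, and replicate 3 was below RW replicate 1. Its log2 fold change was 0.61 ± 0.18 (adjusted p = 0.280), and without RW replicate 1 it was 0.84 and passed (adjusted p = 0.0375). That was 1 of 15 fits that left out 1 library, and the adjusted p ran up to 0.686 in them. C1qa had a log2 difference of 0.50 (adjusted p = 0.667) and C1qc of 0.34 (adjusted p = 0.828). In both, aJ1aJ2 replicate 3 was the lowest of its group, at 36.8 CPM for C1qa and 29.5 CPM for C1qc. That library had a summed muscle gene level of 56548 CPM, the highest of its group.

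Itgax stood at 6.78, 5.18, 6.55, 5.51 and 4.37 CPM with RW and at 11.3, 12.2, 5.86, 7.89 and 14.5 CPM with aJ1aJ2. For Itgax 4 of the 5 aJ1aJ2 libraries were above every RW library. The log2 fold change was 0.86 ± 0.25 (adjusted p = 0.276), and DESeq2 gave an adjusted p of 0.0474. Cd68 differed by 0.48 ± 0.21 on the log2 scale (adjusted p = 0.720). Csf1r, the receptor on which resident macrophages depend, differed by -0.04 ± 0.13 with means of 41.9 ± 6.86 CPM (RW) and 40.8 ± 6.46 CPM (aJ1aJ2). Mrc1 was at -0.22 ± 0.22 and Cd163 at -0.77 ± 0.37 (adjusted p = 0.771), the opposite direction to Adgre1. Cd163 ran from 8.27 to 21.8 CPM with RW and from 3.63 to 15.1 CPM with aJ1aJ2.

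Of the 10 members, 0 passed in this comparison, where 0.573% of all genes tested did. By DESeq2, 2 members passed, Adgre1 and Itgax, and by limma-voom 0. Over all genes DESeq2 called more than edgeR here and limma-voom fewer, so 0.573% is the share for edgeR only. An unadjusted p under 0.05 was reached by 5 members (Adgre1, Cd68, C1qa, C1qb and Itgax), against 6.59% of all genes. The fold change was positive for 6 members and negative for 4, and their median log2 fold change was 0.41 against -0.03 over all genes tested. Genes of other cell types also lay to 1 side in this comparison with 0 passing: all 9 skeletal muscle genes (median -0.63) and all 6 fibroblast genes (median -0.57) were negative, and 6 of 7 adipose genes were positive (median 0.51). Their part in the member values was not tested. In simulated data on this design, genes changed 1.5-fold were called in 3 of 50 cases, genes changed 2-fold in 20 of 50 and genes changed 4-fold in 45 of 50. The simulation drew each count independently and changed genes above 5 CPM. It had no shared differences in tissue makeup between libraries, so its shares need not hold for these members.

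Related lists gave genes that did pass. Of 20 further macrophage genes tested, 3 rose: Siglec1, the sialoadhesin of tissue macrophages (1.53, adjusted p = 0.0177), Fcgr1, the high-affinity IgG receptor CD64 (1.42, adjusted p = 0.0275), and Fcer1g, the signalling chain of Fc receptors (1.03, adjusted p = 0.0342). Of the 20, 14 fold changes were positive and 6 negative, with a median of 0.37. Siglec1 stood at 6.48, 3.20, 4.23, 3.35 and 3.77 CPM with RW and at 9.73, 18.4, 12.9, 8.03 and 11.8 CPM with aJ1aJ2. Every aJ1aJ2 library was above every RW library for this gene. Among 9 macrophage chemokine genes, the monocyte attractants Ccl12 (2.84, adjusted p = 0.0068) and Ccl7 (2.72, adjusted p = 0.0068) rose. Of the 9, 7 were positive and 2 negative, the lowest at -2.11. The monocyte gene Ms4a4c rose (2.70, adjusted p = 0.0068), the only one of 7 to pass, 5 being positive and 2 negative. Of 12 dendritic genes only Siglech, a receptor of plasmacytoid dendritic cells, passed, and it fell (-1.89, adjusted p = 0.0224). In that list 9 fold changes were positive and 3 negative. Of 11 complement genes 0 passed (5 with an unadjusted p under 0.05), although all 11 fold changes were positive (median 0.61). Of the 5 genes tested among growth factors and receptors that sustain these cells (Csf1, Il34, Csf2ra, Csf2rb and Flt3l) 0 passed, and 1 had an unadjusted p under 0.05.

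The Notch1 and Notch2 blockade at 15 hours was compared with the same RW libraries, so the 2 comparisons share their controls. In the deposited FPKM the aN1aN2 libraries carry another scaling than the RW and aJ1aJ2 libraries of 15 hours, so a difference in how they were handled and the antibody cannot be told apart. Adgre1 stood at 21.1, 22.8, 17.4, 17.5 and 21.0 CPM with aN1aN2. All 5 lay above the RW mean and above 4 of the 5 RW libraries. The log2 fold change was 0.55 ± 0.23 (adjusted p = 0.288), and 0.84 without RW replicate 1 (adjusted p = 0.0498). It passed in only that 1 of 15 fits that left out 1 library, with an adjusted p of up to 0.558 in them. C1qa differed by 0.50 ± 0.19 (adjusted p = 0.242) and C1qb by 0.45 ± 0.18 (adjusted p = 0.241). C1qa ran from 51.2 to 75.9 CPM with aN1aN2 and from 34.1 to 61.8 CPM with RW, the overlap coming from RW replicate 1. Cd68 differed by 0.41 (adjusted p = 0.401) and C1qc by 0.19 (adjusted p = 0.683). Itgax differed by -0.06 ± 0.25 (adjusted p = 0.947) and Csf1r by 0.01 ± 0.13. Mrc1 (0.43, adjusted p = 0.396) and Cd163 (0.31, adjusted p = 0.755) had positive values, where with aJ1aJ2 theirs were negative.

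Of the 10 members 0 passed here, where 1.68% of all genes did, and 0 passed with DESeq2 or limma-voom. Of them 3 had an unadjusted p under 0.05 (Adgre1, C1qa and C1qb), against 14.4% of all genes. The fold change was positive for 9 and negative for 1, with a median of 0.42 against 0.01 over all genes. Genes of other cell types lay to 1 side here too with 0 passing: all 11 follicle genes were negative (median -0.41), and all 7 adipose genes (median 0.65), all 8 T-cell genes (median 1.19) and all 6 fibroblast genes (median 0.33) were positive. Their part in the member values was not tested. The same further macrophage genes passed as with aJ1aJ2 but for Fcer1g: Fcgr1 rose (1.59, adjusted p = 0.0075) and Siglec1 rose (1.48, adjusted p = 0.0124). Fcgr1 stood at 3.88, 1.27, 2.85, 2.43 and 2.19 CPM with RW, at 5.78, 8.77, 5.36, 5.30 and 8.72 CPM with aJ1aJ2 and at 8.45, 9.11, 5.62, 7.07 and 8.05 CPM with aN1aN2. Both blockades lay wholly above RW for Fcgr1. Ccl12 (2.27, adjusted p = 0.0088), Ccl7 (1.76, adjusted p = 0.0303) and Ms4a4c (2.37, adjusted p = 0.0043) rose. Positive and negative fold changes numbered 17 and 3 for further macrophage genes, 7 and 2 for chemokine genes and 7 and 0 for monocyte genes. Of 11 complement genes 2 rose, among them C3, which encodes the central complement protein (0.95, adjusted p = 0.0372), and all 11 fold changes were positive (median 0.64). The neutrophil gene S100a9 rose (5.37, adjusted p = 0.0380), 1 of 5 neutrophil genes tested, while the neutrophil marker Ly6g stood at 0 to 0.392 CPM in the 15-hour groups. Neutrophil genes took 1.00% and 2.55% of counts in aN1aN2 replicates 2 and 5, which are high in airway genes. They took 0.00282% to 0.0385% in replicates 1, 3 and 4, and 0.968% in RW replicate 5, also high in airway genes. The part of these libraries in the S100a9 and C3 values is not given here.

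**Figure D2:**
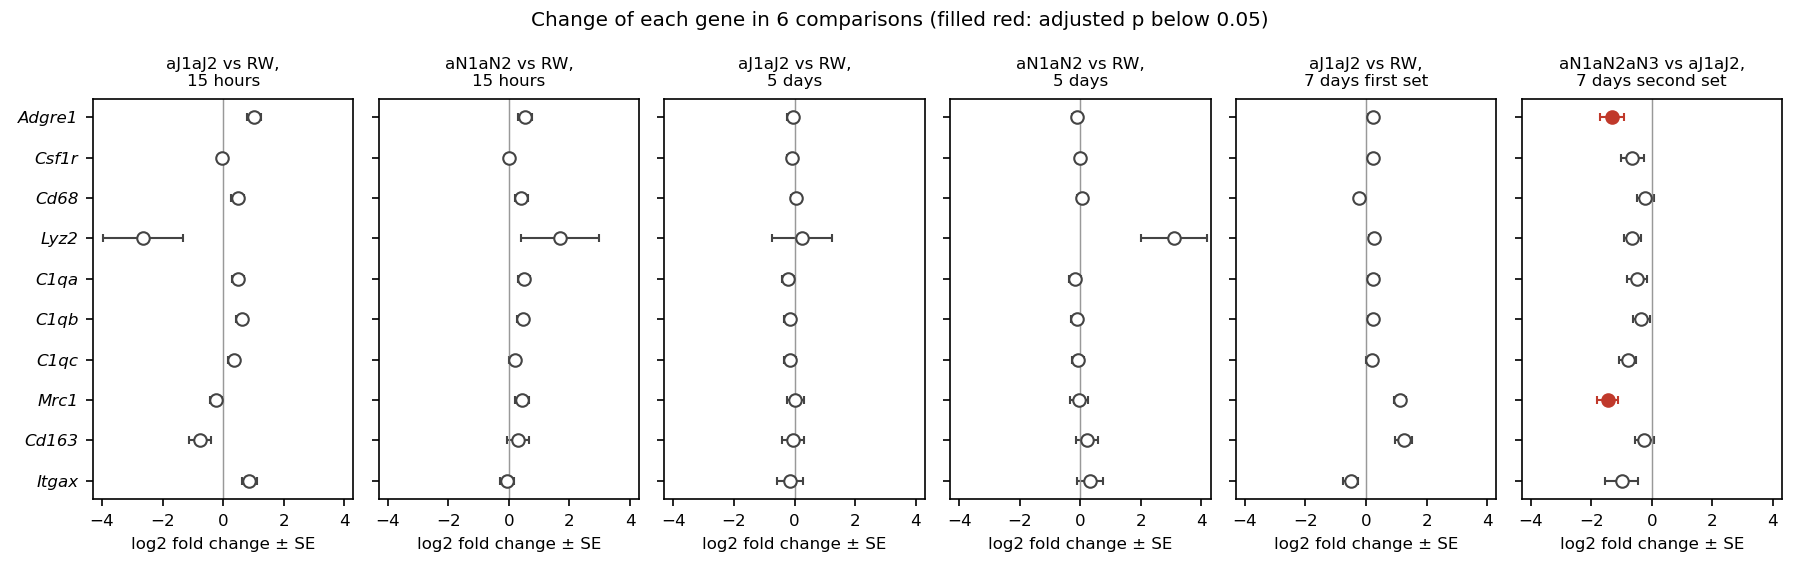
Log2 fold change of each of the 10 genes in the 6 comparisons, with bars of 1 SE; filled red points have an adjusted p below 0.05 by edgeR. Mrc1 and Adgre1 in the second 7-day set are the red points, at -1.46 and -1.33.

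At 5 days the members lay close to the control. With aJ1aJ2, the 9 members other than Lyz2 had log2 fold changes from -0.22 to 0.05 (SE up to 0.43). With aN1aN2 they ran from -0.19 to 0.33. In the order aJ1aJ2 then aN1aN2, Csf1r was at -0.10 and 0.00, Cd68 at 0.05 and 0.06, and Mrc1 at 0.03 and -0.04. C1qa was at -0.22 and -0.19, C1qb at -0.16 and -0.13, and C1qc at -0.16 and -0.09. Cd163 was at -0.05 and 0.23 and Itgax at -0.14 and 0.33. Adgre1 stood at 16.9, 15.8, 13.5, 17.2 and 16.0 CPM with RW, at 14.8, 11.4, 10.5, 18.3 and 21.2 CPM with aJ1aJ2 and at 14.9, 15.4, 15.9, 14.6 and 13.7 CPM with aN1aN2. The 3 groups overlapped for Adgre1, with log2 fold changes of -0.07 ± 0.17 and -0.10 ± 0.17. Of the 10 members 0 passed in either comparison, where 0.179% of all genes passed with aJ1aJ2 and 0% with aN1aN2, and 0 passed with DESeq2 or limma-voom. An unadjusted p under 0.05 was reached by 0 members with aJ1aJ2 (11.8% of all genes) and by 1, Lyz2, with aN1aN2 (10% of all genes). RW replicate 3, the muscle-rich library, was the highest of its group for 7 members and the lowest for 2. It held 54.2 CPM of Cd163, where the other 4 had 14.5 to 22.8 CPM, and 1.12 CPM of Itgax, where they had 3.71 to 6.54 CPM.

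The change of effect between 15 hours and 5 days was tested directly. For Adgre1 the aJ1aJ2 effect was lower at 5 days by 1.10 ± 0.30 on the log2 scale (-1.10, adjusted p = 0.0801). It passed in 2 of 8 alternatives, with DESeq2 and with a covariate for muscle genes. Of 30 fits that left out 1 library it passed in 1, without RW replicate 1 of 15 hours. C1qb differed by -0.79 ± 0.26 (adjusted p = 0.183) and Itgax by -1.04 (adjusted p = 0.454). Of the 10 members 0 passed for aJ1aJ2, where 0.636% of all genes did, and 0 for aN1aN2, where 1.8% did. In each, 3 members had an unadjusted p under 0.05, against 11.2% and 14.8% of all genes. Other macrophage genes did pass, for both antibodies. The 2 antibodies shared their RW libraries at both times, so their results, here and for the chemokine genes, are not independent. For aJ1aJ2 the effect was lower at 5 days for Fcgr1 (-2.05, adjusted p = 0.0329) and the scavenger receptor Msr1 (-1.88, adjusted p = 0.0425) and higher for Mertk, a receptor for apoptotic cells (1.28, adjusted p = 0.0365). For aN1aN2 it was lower for Fcgr1 (-2.10, adjusted p = 0.0116) and Siglec1 (-1.77, adjusted p = 0.0234). The aN1aN2 libraries of 15 hours carry another FPKM scaling than their RW controls, while all 5-day libraries share the same scaling. For aN1aN2, a difference in handling and a change of effect therefore cannot be told apart, here and in the chemokine genes below. Of 9 chemokine genes the same 3 had a lower effect with each antibody: Ccl7 (-5.39 with aJ1aJ2 and -5.42 with aN1aN2), Ccl12 (-4.49 and -3.81) and Ccl2 (-5.50 and -4.69). Their adjusted p-values ran up to 0.0106 with aJ1aJ2 and up to 0.0091 with aN1aN2. For Ccl7 and Ccl12 the differences were larger in size than the rises at 15 hours. The estimated effects on these genes at 5 days were thus negative. The dendritic gene Siglech had a higher aJ1aJ2 effect at 5 days (2.21, adjusted p = 0.0242).

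In the first 7-day set, the scavenger receptors Mrc1 and Cd163 separated the aJ1aJ2 libraries from RW. Mrc1 stood at 12.8, 15.0, 11.4, 9.49 and 10.8 CPM with RW and at 24.4, 30.8, 33.7, 24.4 and 16.7 CPM with aJ1aJ2. Every aJ1aJ2 library was above every RW library. The means were 11.9 ± 2.10 and 26.0 ± 6.60 CPM, a log2 fold change of 1.12 ± 0.20 with an adjusted p of 0.0820. The unadjusted p was 0.000135, and 0 of the 16954 genes tested passed in this comparison, the smallest adjusted p of any gene being 0.0655. Mrc1 passed with DESeq2 (adjusted p = 8.5e-05) and without the count filter (adjusted p = 0.0471), and leaving out each library in turn gave adjusted p-values of 0.0745 to 0.250.

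Cd163 stood at 16.2, 8.40, 12.5, 7.98 and 7.35 CPM with RW and at 18.1, 42.0, 23.3, 23.4 and 17.3 CPM with aJ1aJ2. The groups did not overlap, and aJ1aJ2 replicate 2 was far above the other 4. The log2 fold change was 1.24 ± 0.30 (adjusted p = 0.166), and 0.96 without that library (adjusted p = 0.147). DESeq2 gave an adjusted p of 0.00648. Thus 2 of the 10 members, Mrc1 and Cd163, had groups that did not overlap, against 3.59% of all genes tested. The other 8 lay between -0.50 (Itgax, adjusted p = 0.467) and 0.25 (Lyz2 and C1qa) on the log2 scale, with Adgre1 at 0.21 ± 0.15, Csf1r at 0.23, C1qb at 0.22, C1qc at 0.19 and Cd68 at -0.22. By edgeR 0 members passed (0% of all genes), and by limma-voom 0. By DESeq2 2 passed, but DESeq2 also called other genes here, 40.4% of its calls being higher. The 0% of edgeR is therefore not the share for DESeq2, which is not given here. Unadjusted, 2 members had a p under 0.05 (11.6% of all genes). The fold change was positive for 8 members and negative for 2, with a median of 0.22 against 0.01 over all genes.

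Of 19 further macrophage genes tested 0 passed (5 with an unadjusted p under 0.05), 10 being positive and 9 negative, from -0.88 to 1.42 with a median of 0.04. The 2 with the smallest p were Lyve1 and Siglec1. Lyve1, a hyaluronan receptor also made by lymphatic endothelium, stood at 8.77, 4.91, 4.67, 3.65 and 6.26 CPM with RW and at 10.9, 25.6, 15.6, 14.3 and 9.80 CPM with aJ1aJ2 (log2 1.42, adjusted p = 0.132). Siglec1 differed by 0.91 (adjusted p = 0.171). Muscle genes had a median of 1.66 in this comparison, with 0 of 9 passing and summed levels of 1107 to 19006 CPM with RW and 2956 to 91019 CPM with aJ1aJ2. With muscle level as a covariate the Cd163 difference was 0.95. T-cell genes had a median of -3.85 with 0 of 4 passing, and summed to 10.0 to 326 CPM with RW and 4.09 to 8.70 CPM with aJ1aJ2. The part of either in the result was not tested beyond these values.

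The aJ1aJ2 effect differed between 7 days and 15 hours for Mrc1. The difference of the 2 log2 fold changes was 1.32 ± 0.27 (adjusted p = 0.0404), the only member of 10 to pass where 0.314% of all genes did. An unadjusted p under 0.05 was reached by 6 members, against 10.9% of all genes. Mrc1, Cd163 and Lyz2 were positive and Adgre1, Cd68 and Itgax negative. For Lyz2 the difference was 2.83 ± 1.07, and 0.41 without the RW library high in airway genes. Leaving out each of the 20 libraries in turn kept the Mrc1 difference at 1.19 to 1.44, but it passed in 4 of those 20 fits (adjusted p = 0.0302 to 0.0894). It also missed the threshold with limma-voom (adjusted p = 0.112) and without the RW library high in airway genes (1.27, adjusted p = 0.0739). Cd163 differed by 1.98 ± 0.48 (adjusted p = 0.0904). Adgre1 (-0.82, adjusted p = 0.326) and Itgax (-1.39 ± 0.38, adjusted p = 0.123) had the opposite sign. From the other lists 2 genes passed: Ms4a4c with a lower effect at 7 days (-2.79, adjusted p = 0.0177) and Ccl24, a chemokine of alternatively activated macrophages, with a higher one (2.65, adjusted p = 0.0404).

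In the second 7-day set, triple receptor blockade was compared with ligand blockade, and Mrc1 and Adgre1 were lower with aN1aN2aN3. They were the only members to pass, in a comparison where 19.6% of all genes passed and 10.4% passed as lower. Without an isotype control in this set, higher, lower and fell mean aN1aN2aN3 relative to aJ1aJ2. A fall with the first and a rise with the second cannot be told apart. Mrc1 stood at 21.2, 24.5, 18.7, 11.7 and 35.5 CPM with aJ1aJ2 and at 11.0, 5.64, 4.18, 13.02 and 7.70 CPM with aN1aN2aN3. Only aJ1aJ2 replicate 4 lay within the range of the other group. The means were 22.3 ± 8.74 and 8.31 ± 3.67 CPM, and the log2 fold change was -1.46 ± 0.35 (adjusted p = 0.0143). Mrc1 passed in all 8 alternative analyses and in all 10 fits that left out 1 library (-1.67 to -1.24, adjusted p = 0.00749 to 0.0407).

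Adgre1 stood at 11.8, 13.2, 11.9, 6.48 and 24.8 CPM with aJ1aJ2 and at 7.27, 4.57, 2.38, 9.09 and 4.41 CPM with aN1aN2aN3. Again replicate 4 of aJ1aJ2 was the one that overlapped. The log2 fold change was -1.33 ± 0.39 (adjusted p = 0.0349). It passed in 5 of 8 alternatives and in 3 of the 10 fits that left out 1 library, and without aJ1aJ2 replicate 5 it was -1.01 (adjusted p = 0.0680). That library was the highest of its group for 9 of the 10 members, and replicate 4 the lowest for 8. Among the aN1aN2aN3 libraries replicate 4 was the highest for 9 members.

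The remaining 8 members did not pass. C1qc stood at 39.8, 51.9, 42.3, 26.8 and 69.3 CPM with aJ1aJ2 and at 32.9, 23.8, 19.0, 40.9 and 18.5 CPM with aN1aN2aN3. The C1qc groups overlapped, with a log2 fold change of -0.80 ± 0.28 (adjusted p = 0.0647, and 0.0416 with DESeq2). C1qa was at -0.50 (adjusted p = 0.300) and C1qb at -0.34 (adjusted p = 0.406). Csf1r stood at 16.8, 23.2, 12.7, 23.6 and 51.0 CPM with aJ1aJ2 and at 20.0, 14.1, 9.62, 27.3 and 12.3 CPM with aN1aN2aN3. Its log2 difference was -0.64 ± 0.38 (adjusted p = 0.253), and -0.23 without aJ1aJ2 replicate 5 (adjusted p = 0.609). Lyz2 was at -0.64 ± 0.28 (adjusted p = 0.130), Cd163 at -0.25 (adjusted p = 0.592) and Cd68 at -0.22 (adjusted p = 0.604). Itgax was at -0.99 ± 0.55 (adjusted p = 0.216), from 131 and 88 counts over the 5 libraries of each group, which limits its precision.

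All 10 members were lower, 2 of them past the threshold where 10.4% of all genes were called lower and 19.6% were called in either direction. The median was -0.64 against -0.07 over all genes. No member had groups that did not overlap (15% of all genes did), and 4 had an unadjusted p under 0.05 (35.6% of all genes). Of 20 further macrophage genes 8 fell, among them Timd4, a phosphatidylserine receptor of resident macrophages (-2.88, adjusted p = 0.0026), Ms4a7 (-2.35, adjusted p = 0.0056), Msr1 (-1.74, adjusted p = 0.0090) and Tyrobp, a signalling adaptor of myeloid cells (-1.23, adjusted p = 0.0170). Higher were 2 genes that passed, Mertk (0.82, adjusted p = 0.0182) and the lipopolysaccharide coreceptor Cd14 (1.38, adjusted p = 0.0359). Ms4a7 stood at 12.7, 15.8, 17.1, 6.69 and 19.5 CPM with aJ1aJ2 and at 5.35, 1.94, 1.13, 4.36 and 1.55 CPM with aN1aN2aN3, with no overlap.

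Some dendritic and chemokine genes also fell in this set. Of 12 dendritic genes 4 fell and 8 did not pass, 4 of these with a positive fold change (up to 1.54). Those that fell were led by Xcr1, a chemokine receptor of cross-presenting dendritic cells (-4.64, adjusted p = 0.0017), and Siglech (-3.46, adjusted p = 0.0106). Xcr1 ran from 0.751 to 2.16 CPM with aJ1aJ2 and from 0 to 0.163 CPM with aN1aN2aN3. Of 8 macrophage chemokine genes 5 fell, including Ccl2 (-3.25, adjusted p = 0.0005) and Pf4 (-2.66, adjusted p = 0.0017). Of 7 monocyte genes 2 fell and of 11 complement genes 1, the C3a receptor gene C3ar1 (-1.22, adjusted p = 0.0314). Genes of other cell types moved too. Adipose genes fell in 4 of 7 cases (median -2.28) and summed to 3634 to 4457 CPM with aJ1aJ2 against 334 to 1565 CPM with aN1aN2aN3. Fibroblast genes fell in 2 of 6 cases (median -2.33) and summed to 903 to 2377 CPM against 419 to 1076 CPM. Muscle genes, with 0 of 9 passing, ran from 279 to 114519 CPM against 3920 to 23481 CPM. The part of these tissues in the lower member values was not tested.

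**Figure D3:**
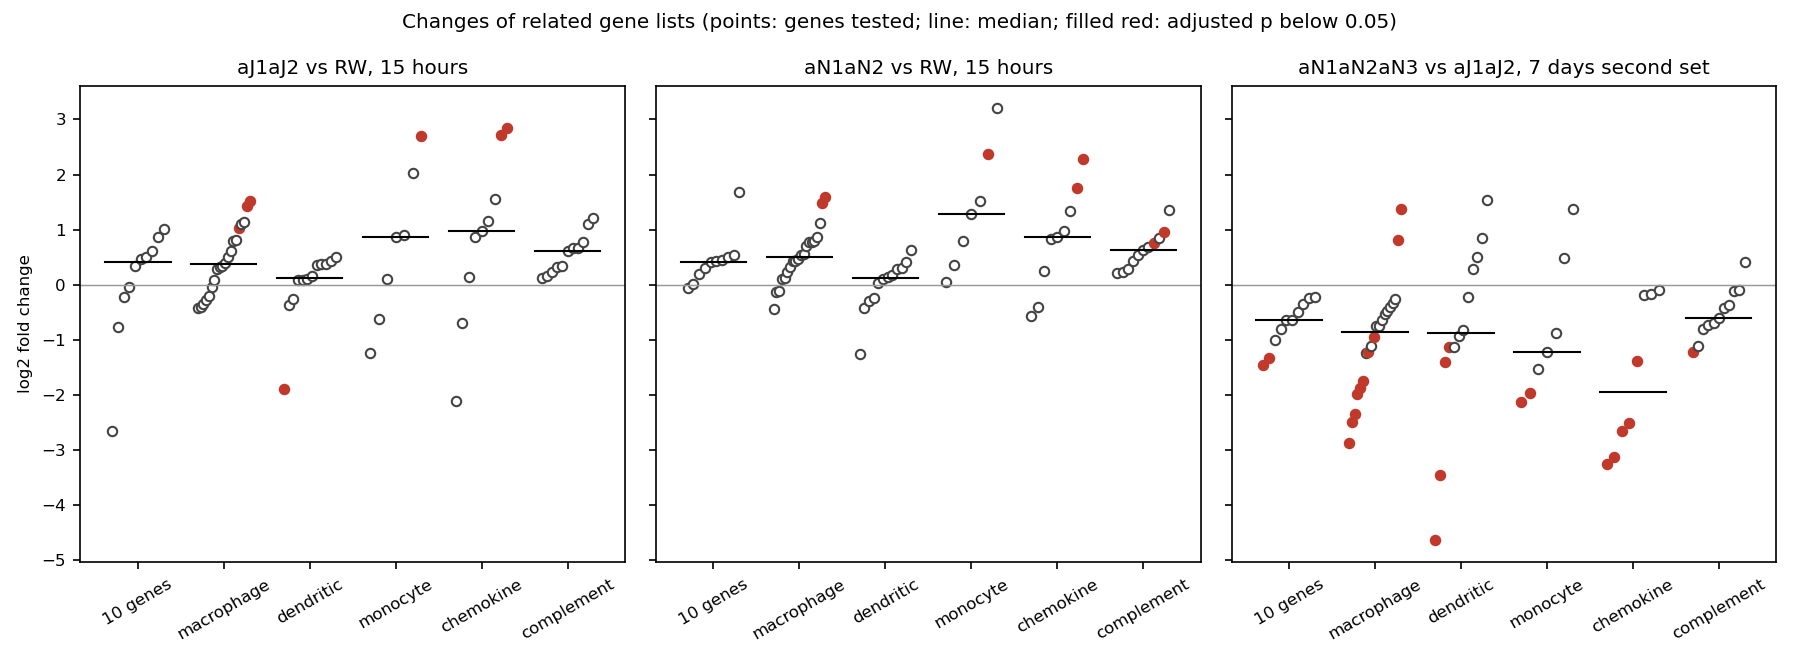
Log2 fold changes of the 10 members and of related gene lists in 3 comparisons, each point a gene. In the second 7-day set the members have a median of -0.64 and the chemokine genes one of -1.95.

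The aJ1aJ2 groups of the 2 sets at 7 days had the same labelled antibody and time but different member levels, described here without a test. Lyz2 ran from 66.4 to 85.0 CPM in the first set and from 179 to 394 CPM in the second. C1qb ran from 33.4 to 39.0 CPM and from 34.7 to 92.5 CPM. Csf1r went the other way, from 34.0 to 43.1 CPM in the first set and with 4 of 5 libraries at 12.7 to 23.6 CPM in the second. Itgax ran from 1.91 to 5.12 CPM and from 0.369 to 2.00 CPM. Set and tissue makeup, with the lower follicle share of the second set, cannot be told apart, and no level of the second set was tested against RW.

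Lyz2 had the widest range of the 10 members. In RW at 15 hours it stood at 170, 315, 114, 84.0 and 4145 CPM, with aJ1aJ2 at 160, 144, 179, 151 and 135 CPM and with aN1aN2 at 276, 3604, 207, 132 and 11258 CPM. At 5 days aN1aN2 replicate 1 stood at 4590 CPM and the other 4 at 106 to 143 CPM. These 4 libraries, at 3604 to 11258 CPM, are those high in airway genes, and the other 46 had 48.5 to 394 CPM. Lyz1 was high in the same libraries, at 561 to 3938 CPM in the 4 and 1.07 to 41.0 CPM in the 46. Adgre1 ran from 11.2 to 22.8 CPM in the 4 libraries, inside its range of 2.38 to 33.7 CPM in the others, and C1qb from 38.2 to 74.2 CPM inside 20.9 to 92.5 CPM.

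**Figure D4:**
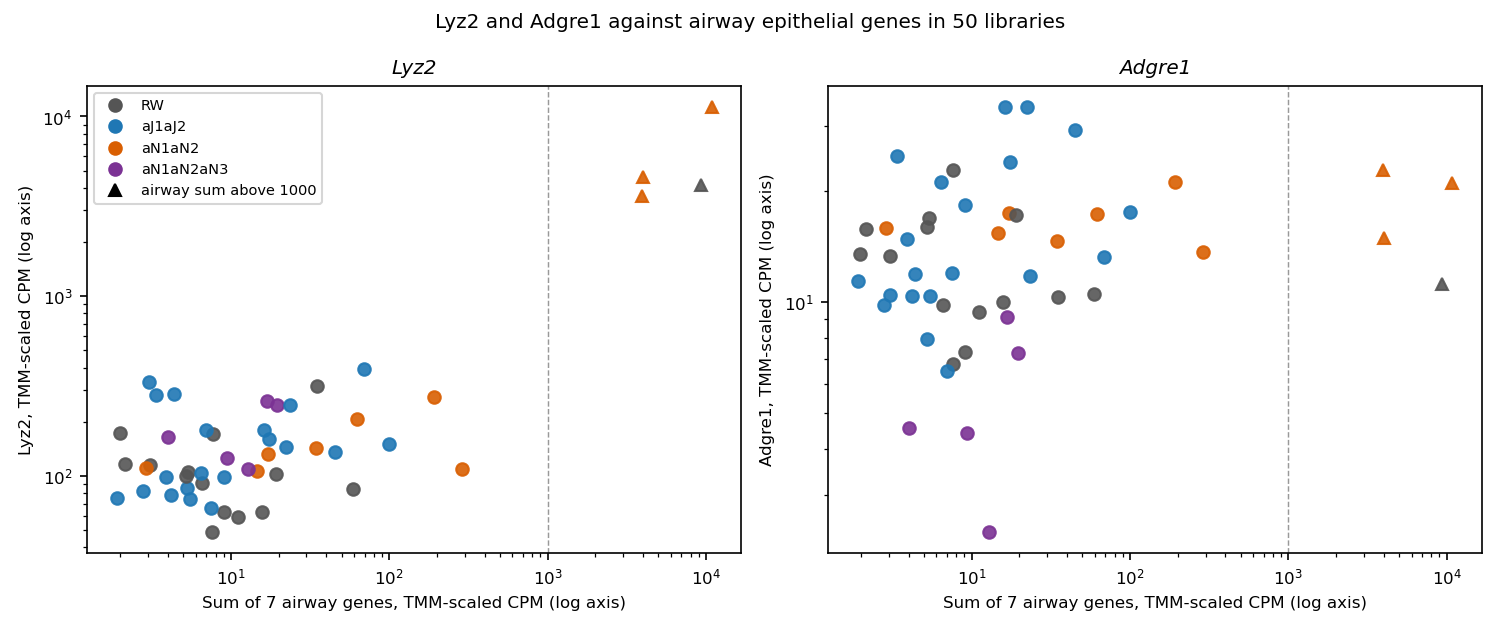
Lyz2 (left) and Adgre1 (right) against the summed level of 7 airway genes in 50 libraries, both axes in CPM on log scales; triangles are the 4 libraries above 1000 CPM, marked by the dashed line. Lyz2 is at 3604 CPM or more in all 4, while Adgre1 there is 11.2 to 22.8 CPM.

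The Lyz2 fold changes of 3 comparisons with RW moved when these libraries were left out, as did the difference between 7 days and 15 hours given above. The aJ1aJ2 difference at 15 hours was -2.65 ± 1.32 (adjusted p = 0.800) with all libraries and -0.15 without those high in airway genes. For aN1aN2 it was 1.68 ± 1.28 (adjusted p = 0.596) and 0.26 (adjusted p = 0.939). For aN1aN2 at 5 days it was 3.09 ± 1.08 (adjusted p = 0.321) and -0.05 (adjusted p = 0.974). For aJ1aJ2 at 5 days, where neither group held such a library, it was 0.25 ± 1.00 (adjusted p = 0.929), and -0.36 without aJ1aJ2 replicate 3, which stood at 334 CPM where the other 4 had 74.8 to 104 CPM. In the first 7-day set, where no library was high in airway genes, Lyz2 ran from 48.5 to 91.1 CPM with RW and from 66.4 to 85.0 CPM with aJ1aJ2 (0.25 ± 0.16). The part of airway tissue in the Lyz2 values was not tested beyond this. The genes most like Lyz2 over the 50 libraries, picked after its values were seen, were Lyz1 (r = 0.957), Pglyrp1 (0.944) and Prss32 (0.934).

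How the members varied together within groups was described by correlating log2 CPM over the 50 libraries after subtracting each group's mean. The points share library depth, scaling and tissue makeup, so the values are a description. C1qa and C1qc were closest (r = 0.962, rho = 0.953), then C1qa and C1qb (r = 0.940) and C1qb and C1qc (r = 0.934). These 3 genes are neighbours on chromosome 4. Cd68 and C1qb had r = 0.753, Adgre1 and C1qb r = 0.737, and Adgre1 and Itgax r = 0.674. Mrc1 and Cd163 had r = 0.686 (rho = 0.710), while Cd163 had r = 0.079 with C1qb and r = -0.247 with Itgax. Lyz2 had r between 0.084 and 0.166 with Adgre1, Csf1r, Cd68 and the C1q genes, and higher values with Cd163 (r = 0.463, rho = 0.577) and Mrc1 (r = 0.427, rho = 0.540). With Itgax it had r = -0.194.

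**Figure D5:**
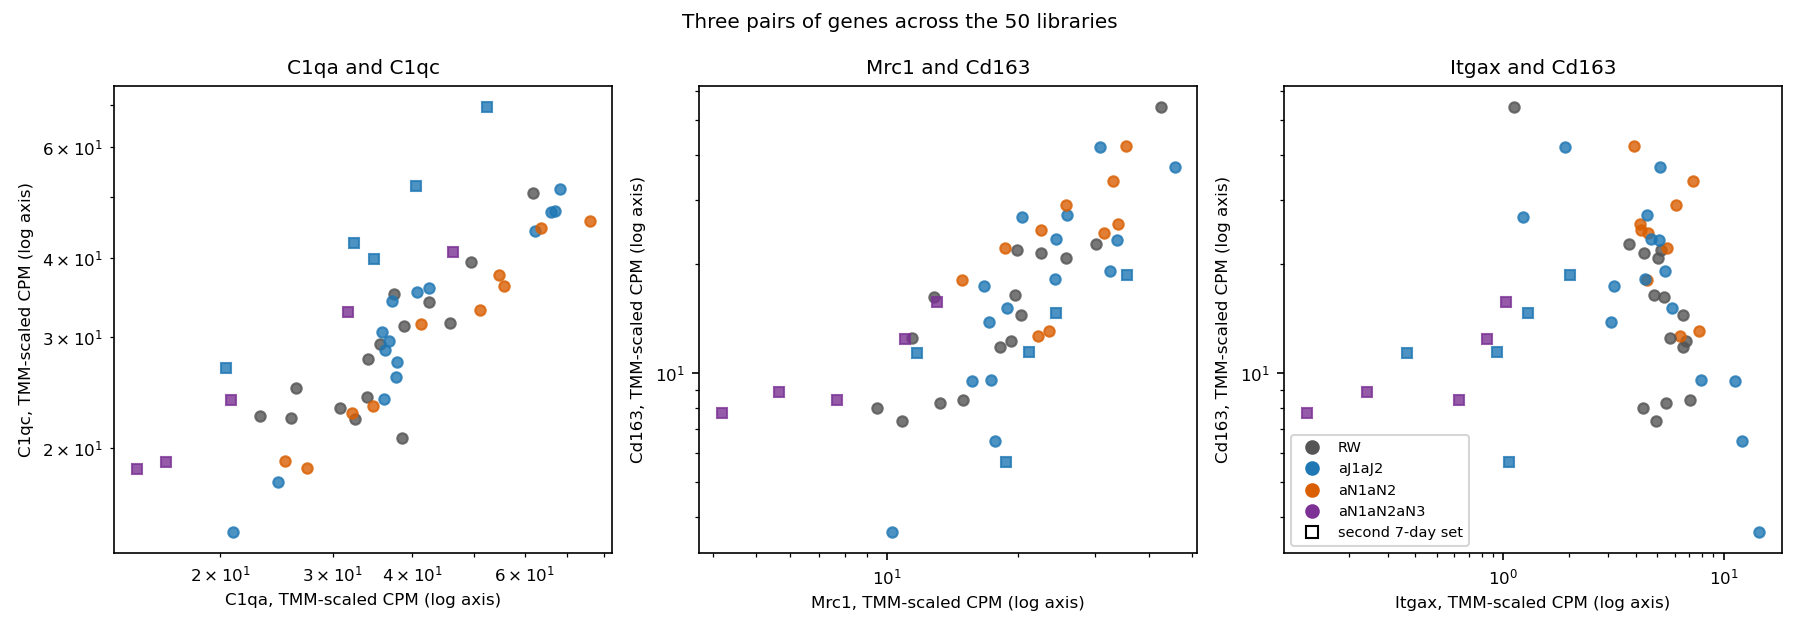
Level of C1qa against C1qc, Mrc1 against Cd163 and Itgax against Cd163 in 50 libraries, in CPM after scaling by edgeR's trimmed mean, on log axes. Group means are not subtracted in the plot, and squares are the second 7-day set. The correlations in the text were computed on other values, log2 CPM after subtracting each group's mean. They were r = 0.962 for the first pair, r = 0.686 for the second and r = -0.247 for the third.

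Other genes were ranked by the correlation of their group-centred log2 CPM with the mean of the 10 members, among 21546 genes over the 50 libraries. The 8 most alike were Pld4 (0.817), Ms4a6c (0.788), Gpr141b (0.761), Clec4a3 (0.759), C3ar1 (0.758), Tlr7 (0.744), Gpr34 (0.735) and Clec4a1 (0.734). Pld4 encodes a lysosomal nuclease, Tlr7 an endosomal receptor for single-stranded RNA and C3ar1 the receptor for complement C3a. With Lyz2 left out of the mean, Pld4 was again first (0.840) and 7 of the 8 were shared, P2ry13 taking the place of Clec4a1.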

How the data were processed

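RNA-seq counts and FPKM per gene were deposited for 50 thyroid libraries in 10 groups of 5, grouped by the treatment label. Reads were single-end, 50 bases on an Illumina sequencer, per the labels' protocols. The submitters' processing notes name GSNAP and limma; the sources used here do not say what each was used for, nor the counter, genome build, annotation or strand setting. The deposited counts are whole numbers that the authors had not normalised. The deposited FPKM form 2 blocks with different scaling, so they were compared only within a block (1 block held aN1aN2 at 15 hours and all 5-day libraries), and 1 FPKM-based test used log2(FPKM + 0.1), a scale that understates the change of genes with low FPKM such as Adgre1.

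Counts were filtered (filterByExpr, minimum count 10, minimum total 15), scaled by TMM and tested with edgeR 4.0.16 (robust quasi-likelihood, R 4.3.3), with Benjamini-Hochberg adjustment over all genes tested and a threshold of 0.05. Groups of 1 time and set shared a fit, and differences between times were interaction contrasts. CPM are TMM-scaled, and the correlations used a prior count of 2. DESeq2 1.42.0, limma 3.58.1, other scalings, no filter, only the groups compared, a muscle covariate, a replicate block and leaving out each library were alternatives. Leaving out the libraries whose airway genes summed above 1000 CPM was added after the data were seen. The test was tried on simulated counts (18306 genes). No 2 replicates looked like 1 library deposited again: over 100 pairs the chi-square per degree of freedom was at least 17.1.

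The rule for named genes took all 10 members in each comparison with a control or between antibodies; in the differences between times only some are printed. From each other list at most 4 passing genes per comparison with the smallest p are named, or at most 2 as values where none passed; 1 passing gene is not reported here. The members and lists were chosen with earlier results of these data known. Of 52636 identifiers 52403 had a symbol. Figures were drawn with matplotlib 3.10.9.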

Additional observations from a re-analysis of the deposited data

Results flagged for a closer look

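In 11 of 100 sets of 5 libraries (10 members in 10 groups) the highest or lowest library stood away from the rest by more than Dixon's 95% limit for 5 values allows. Chance gives about 1 in 20 sets, or 5 of 100, for independent sets with a normal spread. These sets are CPM values that share libraries and hold correlated members, so 11 beside 5 is a description and not a test. RW replicate 1 at 15 hours was flagged for Adgre1 (22.8 CPM, the others 10.3 to 13.3 CPM) and for C1qc (50.6 CPM). In the same group replicate 5 was high for Lyz2 (4145 CPM). RW replicate 3 at 5 days, the muscle-rich library, was high for Lyz2 (173 CPM) and Cd163 (54.2 CPM). At 5 days Lyz2 was also high in aJ1aJ2 replicate 3 (334 CPM) and in aN1aN2 replicate 1 (4590 CPM). The library aJ1aJ2 replicate 3 at 15 hours was low for C1qa (36.8 CPM) and C1qb (50.7 CPM). At 7 days Cd163 was high in aJ1aJ2 replicate 2 of the first set (42.0 CPM), and Csf1r in aJ1aJ2 replicate 5 of the second (51.0 CPM).

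The effect of aJ1aJ2 on Mrc1 differed between 7 days (first set) and 15 hours by 1.32 on the log2 scale in the test of the difference itself.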

How the results depend on the processing

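The number of all genes called changed with the analysis, so the member counts below have no common share beside them. Of the 10 members, the number past the threshold changed with the analysis as follows. For aJ1aJ2 at 15 hours it was 0, and 2 with DESeq2 (0 to 2 when leaving out each library). For aN1aN2 at 15 hours it was 0 (0 to 1 when leaving out each library). At 5 days it was 0 for both antibodies under every alternative run, DESeq2 giving no adjusted p for Lyz2 with aN1aN2. For the first 7-day set it was 0, but 1 without the count filter and 2 with DESeq2, and 0 when leaving out each library. For the second 7-day set it was 2, and 3 with DESeq2 (C1qc added) but 1 with library totals only, with no count filter and with the replicate block (1 to 3 when leaving out each library). Adgre1 was the member lost in those 3, at adjusted p = 0.0584, 0.0533 and 0.0867. For the aJ1aJ2 effect at 5 days minus 15 hours it was 0, and 1 with DESeq2 and with the muscle covariate (0 to 1 when leaving out each library). For 7 days minus 15 hours it was 1. It was 0 with library totals only, limma-voom, the replicate block and without the libraries high in airway genes, 2 with the muscle covariate and 3 with DESeq2 (0 to 2 when leaving out each library). The cause of these differences was not tested.

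No member past the threshold changed sign in any alternative, and 87 of the values that had not passed did. Of 40 same-numbered pairs of libraries 18 correlated above 0.1 (median 0.0006, from -0.585 to 0.719). Differently numbered pairs were not compared, so the values do not settle whether replicate numbers pair the libraries. Using library totals moved the median of all genes at 5 days by 0.22 (aJ1aJ2) and 0.19 (aN1aN2) and in the second 7-day set by 0.10 on the log2 scale. All genes called by aJ1aJ2 at 15 hours numbered 106, and 265 with DESeq2, 62 with limma-voom, 48 with only the 2 groups compared, 36 with the replicate block and 0 on the FPKM scale, and their share of higher calls went from 60.4% to 50% with library totals and 48.4% with limma-voom. Depth limits Itgax in the second 7-day set, and 5 libraries a group limit the smallest change that could be called.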
